A study of Rattus norvegicus with 8 samples.

Results

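C6 belongs to the complement system, and 6 of its genes were described here in the rat thyroid: C1r, C1s, C3, C6, Serping1 and Cfi. They were chosen by symbol from a list of 7, and C7, the seventh, was not analysed here. The list was drawn around C6 because C6 was lower after irradiation at 1 week, so the values of that comparison chose it and are given below as a description with no test. The other genes were listed as complement genes of stroma and epithelium. For each gene the transcript with the highest summed count stood for the gene, among 30560 genes in all.

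Male Wistar rats received X-rays on the neck at a dose of 4 Gy, or sham exposure, at 1 week or at 4 months of age, and the thyroid was taken 8 weeks later. RNA-seq was run on 8 samples, 2 in each of the groups 1w0Gy (sham at 1 week), 1w4Gy (irradiated at 1 week), 4m0Gy (sham at 4 months) and 4m4Gy (irradiated at 4 months). By the study's methods the samples came from different rats, and the 2 with the better RNA integrity were taken from each group. The 1-week and 4-month groups differed both in age at exposure and in age at sampling, and these cannot be told apart.

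Complement is a cascade of plasma and tissue proteins. In the classical pathway C1q, bound to an antibody or a surface, activates the proteases C1r and C1s, which lead to cleavage of C3, the central protein shared by all routes. The terminal proteins C5 to C9 then assemble the membrane attack complex, in which C6 joins C5b before C7. C1 inhibitor, the product of Serping1, blocks C1r and C1s, and factor I, the product of Cfi, is the protease that inactivates C3b and C4b. Liver makes most of the circulating proteins, and fibroblasts, macrophages and other tissue cells make some of them locally.

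The RefSeq table (assembly GRCr8) held a promoter window, 250 bases before to 50 bases after the annotated start, for 4 of the 7 listed genes: C6, C1r, C3 and Cfi. The 3 windows below are shown because each held the letters TTGCNNAA, the form searched for C/EBP-type sites, on either strand. The capitals mark every match to the letters searched, and each window is written 5′ to 3′ on the strand of its gene. C6 lies on the plus strand of chr2:55573383-55573682, C1r on the plus strand of chr4:159098763-159099062, and C3 on the minus strand of chr9:2201290-2201589.
C6: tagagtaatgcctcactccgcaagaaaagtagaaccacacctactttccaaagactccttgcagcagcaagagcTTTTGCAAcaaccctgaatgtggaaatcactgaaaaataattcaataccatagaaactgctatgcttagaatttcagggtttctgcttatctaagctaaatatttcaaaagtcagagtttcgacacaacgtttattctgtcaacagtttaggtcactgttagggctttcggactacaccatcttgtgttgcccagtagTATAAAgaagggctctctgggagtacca
C1r: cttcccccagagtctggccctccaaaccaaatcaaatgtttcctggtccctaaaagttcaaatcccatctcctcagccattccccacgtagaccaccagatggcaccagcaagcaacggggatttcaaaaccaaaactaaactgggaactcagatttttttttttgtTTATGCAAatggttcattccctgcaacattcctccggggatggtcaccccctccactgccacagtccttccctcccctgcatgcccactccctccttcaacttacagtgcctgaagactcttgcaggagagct
C3: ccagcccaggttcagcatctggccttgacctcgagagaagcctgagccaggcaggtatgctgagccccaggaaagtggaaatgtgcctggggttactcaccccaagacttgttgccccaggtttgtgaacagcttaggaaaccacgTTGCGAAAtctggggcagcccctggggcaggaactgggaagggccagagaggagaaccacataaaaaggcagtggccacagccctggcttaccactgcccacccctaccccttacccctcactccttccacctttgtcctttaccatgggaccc
TTGCNNAA was present in 10.6% of all 33469 promoter windows of that length. In C6 the match lay at bases 75 to 82 of the window, in C1r at bases 168 to 175, both on the opposite strand, and in C3 at bases 147 to 154. The C6 window alone among the 4 held TATAAA, at bases 273 to 278 and hence beyond the annotated start, against 14.2% of all windows. None of the 4 windows held CCAAT (37.5% of all windows) or TTCNNNGAA, the STAT-type form (8.87%). No 2 of these matches overlapped, and all are matches of letters in 1 window only. On the same assembly C1r and C1s were direct neighbours with no coding gene between them, while 1 coding gene, Mroh2b, lay between C6 and C7.

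Levels were expressed as CPM, the counts relative to library size, scaled by the trimmed mean of M values, and divided by transcript length where genes were compared with each other. Per kilobase of transcript Serping1 was the highest of the 6 genes, with a mean of 55.1 CPM per kb over the 8 samples and a range of 42.2 to 66.9. C1r followed at 29.4 (21.3 to 38.1) and C1s at 19.2 (14.5 to 25.1). C6 stood at 4.64 CPM per kb (2.34 to 10.6), C3 at 1.26 (0.494 to 2.53), and Cfi at 0.566 (0.299 to 0.806). Serping1 exceeded C1r, C1r exceeded C1s, C1s exceeded C6 and C6 exceeded C3 in 8 of 8 samples. C3 exceeded Cfi in 7 of 8, so these neighbours in the order did not separate in every sample. The genes thus ranged from 1170 to 2222 counts per sample for Serping1 down to 16 to 36 counts for Cfi, and counting error weighs most on the latter.

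**Figure D1:**
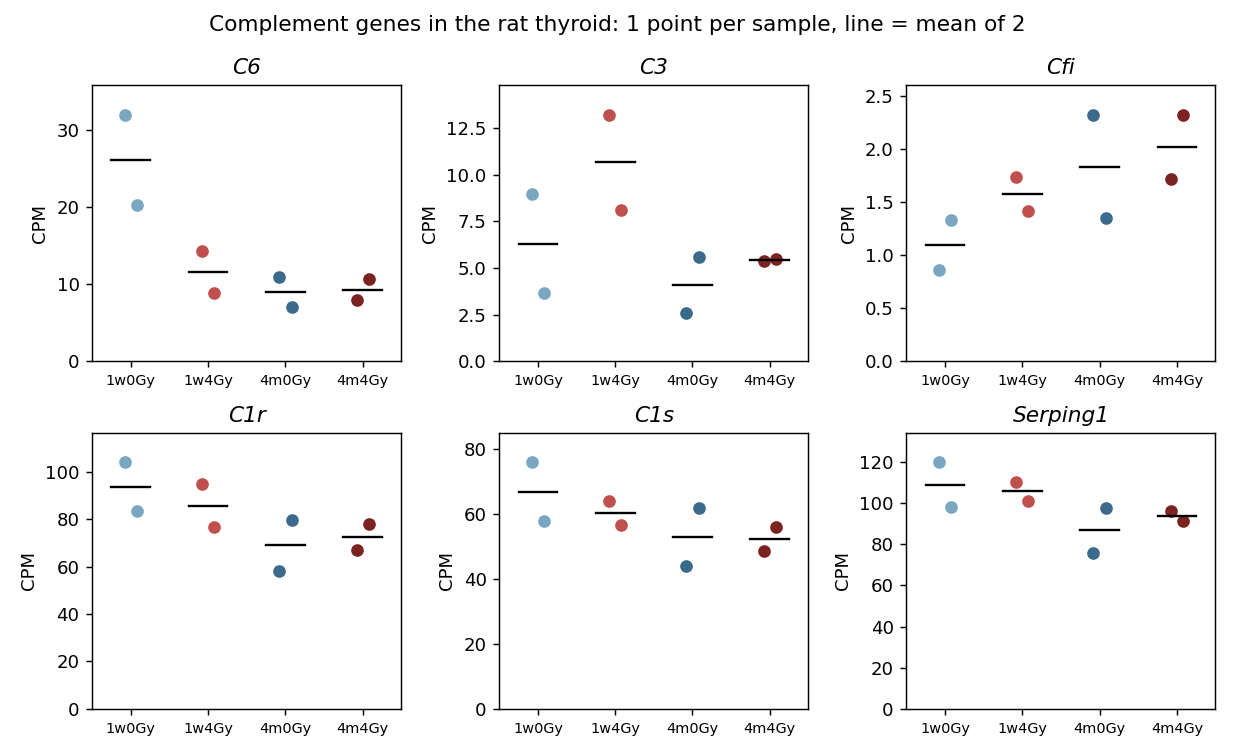
Level of each of the 6 complement genes in CPM (vertical axes, each starting at 0) in the 4 groups, 1 point per sample with the mean of 2 as a line. C6 was highest in both 1w0Gy samples, at 32.0 and 20.3 CPM, and the other 3 groups lay between 7.03 and 14.2 CPM.

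C6 read 32.0 and 20.3 CPM in the 1w0Gy samples and 14.2 and 8.83 CPM in the 1w4Gy samples, from 593, 351, 229 and 143 counts. Both irradiated samples were below both sham samples. The mean fell from 26.1 ± 8.25 CPM (SD, n = 2) to 11.5 ± 3.82 CPM (SD, n = 2), a log2 fold change of -1.18 (SE 0.31), and dropping 1 sample at a time moved it between -1.56 and -0.82. This comparison chose C6, so no test of it is given. The study listed C6 as lower in its RNA-seq. Its quantitative PCR of C6 was also below sham on average, but carried no mark of a significant difference. In bulk tissue fewer cells that express a gene and less RNA per cell cannot be told apart.

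At 4 months, where the samples did not enter the choice, C6 read 10.9 and 7.03 CPM in 4m0Gy and 7.89 and 10.6 CPM in 4m4Gy. The irradiated values lay inside the range of the sham values. The log2 fold change was 0.05 (SE 0.25, 95% confidence interval -0.53 to 0.62, edgeR quasi-likelihood test, adjusted p = 0.976), so the interval allowed a level between 0.694 and 1.54 times that of the sham group. The difference between the ages was not tested, because it holds the comparison that chose C6.

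Across the groups the order of C6 was 1w0Gy, 1w4Gy, 4m4Gy (9.25 ± 1.92 CPM, SD, n = 2) and 4m0Gy (8.97 ± 2.74 CPM, SD, n = 2). The 3 lower groups overlapped one another, and only 1w0Gy stood above the rest in both samples. Between the sham groups C6 was lower at 4 months by a log2 fold change of -1.55 (SE 0.31), again with no test since the 1w0Gy samples entered the choice. Between the irradiated groups the same difference was -0.31 (SE 0.26), and the groups overlapped.

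C1r, one of the proteases of the C1 complex, read 104 and 83.3 CPM in 1w0Gy and 94.9 and 76.5 CPM in 1w4Gy. Its 4-month samples read 58.2 and 79.5 CPM under sham exposure and 66.9 and 77.8 CPM after irradiation. Sham and irradiated samples overlapped at either age.

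C1s, the protease that C1r activates, read 75.9 and 57.7 CPM in 1w0Gy, 64.1 and 56.8 CPM in 1w4Gy, 43.9 and 61.8 CPM in 4m0Gy, and 48.7 and 56.0 CPM in 4m4Gy. It rose and fell with C1r from sample to sample: per kilobase C1r was between 1.43 and 1.64 times C1s in the 8 samples, a range of 1.15 times from lowest to highest. The genes are neighbours with unlike levels, and each was counted on its own transcript.

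Serping1, the inhibitor of both proteases, read 119.8 and 98.0 CPM in 1w0Gy, 110.2 and 101.2 CPM in 1w4Gy, 75.5 and 97.8 CPM in 4m0Gy, and 96.2 and 91.4 CPM in 4m4Gy. Its ratio to C1s per kilobase stayed between 2.67 and 3.34 over the 8 samples. Per kilobase the inhibitor was above both of its protease targets in every sample.

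C6 did not keep such a ratio. Per kilobase the ratio of C6 to C1s in the 1w0Gy samples was 0.424 and 0.354, and in the 1w4Gy samples 0.223 and 0.156. In the 4m0Gy samples it was 0.250 and 0.114, and in the 4m4Gy samples 0.163 and 0.190, a range of 3.70 times over the 8. Both 1w0Gy samples were above the other 6. The ratio carries the values that chose C6, and is a description. The same holds for the Pearson r of log2 CPM over the 8 samples, which was 0.97 between C1r and C1s, 0.92 between C1r and Serping1, 0.66 between C1r and C6, and 0.19 between C3 and C6. The 8 points share their groups, and no p is given.

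**Figure D2:**
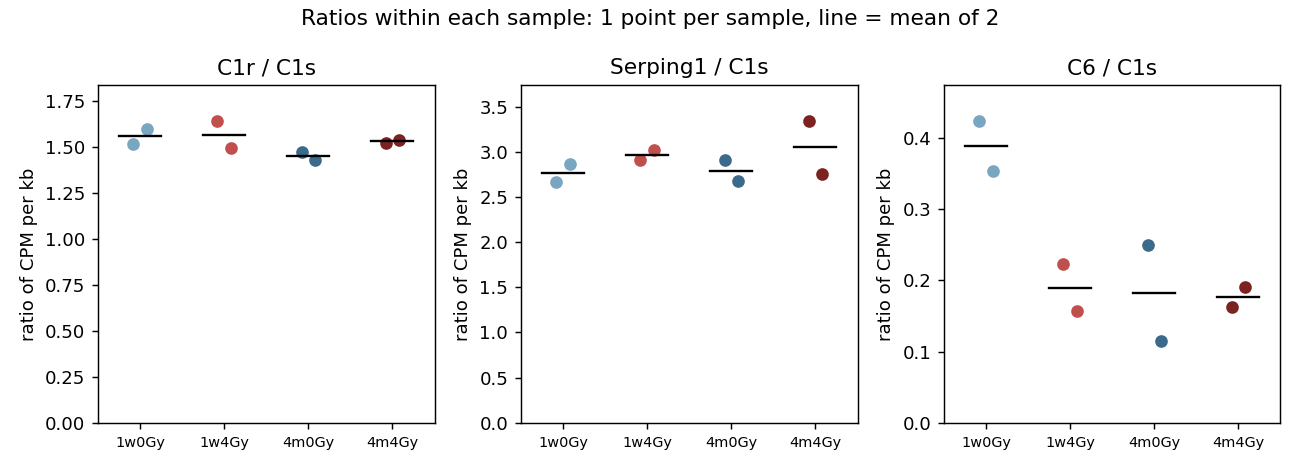
Ratio of CPM per kb within each sample (vertical axes, each starting at 0) for C1r, Serping1 and C6 over C1s in the 4 groups, 1 point per sample with the mean of 2 as a line. C1r over C1s stayed between 1.43 and 1.64, while C6 over C1s went from 0.114 to 0.424 with both 1w0Gy samples on top.

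C3, whose cleavage starts the common part of the cascade, read 8.95 and 3.65 CPM in 1w0Gy, 13.2 and 8.09 CPM in 1w4Gy, 2.58 and 5.57 CPM in 4m0Gy, and 5.37 and 5.50 CPM in 4m4Gy. The 1w4Gy group held the highest sample, and only in 4m4Gy did the samples of a group lie close to each other. Cfi read 0.863 and 1.33 CPM in 1w0Gy, 1.74 and 1.42 CPM in 1w4Gy, 2.32 and 1.35 CPM in 4m0Gy, and 1.72 and 2.33 CPM in 4m4Gy. It was the gene whose lowest value was in 1w0Gy, the group where C6 was highest.

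After irradiation at 1 week the log2 fold changes of the other members were 0.75 for C3 (SE 0.47), 0.53 for Cfi (SE 0.37), -0.15 for C1s (SE 0.14), -0.13 for C1r (SE 0.14) and -0.04 for Serping1 (SE 0.11). Leaving out 1 sample at a time moved C3 between 0.25 and 1.55, the latter without 1w0Gy replicate 1. C6 was lower in both irradiated samples, Cfi was higher in both, and the other 4 genes overlapped between sham and irradiated. Cfi cleared this by little, at 1.42 against 1.33 CPM, with 23 counts in either sample. Over all 15359 genes of that comparison 35.5% did not overlap, 17.8% being lower and 17.7% higher, and 0.00651%, 1 gene, was called (edgeR, adjusted p below 0.05 with a fold above 1.5 or below 0.5).

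After irradiation at 4 months none of the 6 genes was called (edgeR, same limits), against 0.0197% of 15253 genes, and 0 of the 6 had an unadjusted p under 0.05. DESeq2 called none of them either, against 6 over all genes, and gave no adjusted p for Cfi. Over all genes limma called 0, so its lack of calls is not particular to these genes. All 6 overlapped between sham and irradiated, while 39.6% of all genes did not, 18.7% being lower and 20.9% higher. C3 had the largest log2 fold change of the 6, 0.40 (95% confidence interval -0.41 to 1.21, edgeR, adjusted p = 0.817). For Serping1 it was 0.11 (-0.19 to 0.41, adjusted p = 0.867) and for C1r 0.07 (-0.39 to 0.52, adjusted p = 0.947). For C1s it was -0.02 (-0.52 to 0.48, adjusted p = 0.987) and for Cfi 0.15 (-0.70 to 1.00, adjusted p = 0.942). The intervals for C3 and Cfi reached up to 2.32 and 2.00 times the sham level.

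Between the sham groups, 4 months against 1 week, C1r differed by a log2 fold change of -0.44 (SE 0.19, edgeR, adjusted p = 0.327) and Serping1 by -0.33 (SE 0.16, adjusted p = 0.357). C1r, C6 and Serping1 were lower in both 4-month samples and Cfi was higher in both, its log2 fold change being 0.74 (SE 0.41, adjusted p = 0.393). Serping1 cleared this by little, at 97.8 against 98.0 CPM. So did Cfi, at 1.35 against 1.33 CPM, with 23 counts in either sample. C1s, at -0.34 (SE 0.22, adjusted p = 0.515), and C3, at -0.62 (SE 0.57, adjusted p = 0.639), overlapped. None of the 5 genes tested was called, against 1.06% of 15364 genes, and 50.2% of genes did not overlap, 24.8% being lower and 25.4% higher. None of the 5 had an unadjusted p under 0.05. DESeq2 called none of them, against 342 over all genes, and limma called 0 over all genes.

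Between the irradiated groups C3 had the largest difference. Its samples read 13.2 and 8.09 CPM in 1w4Gy and 5.37 and 5.50 CPM in 4m4Gy, a log2 fold change of -0.97 (SE 0.25, 95% confidence interval -1.56 to -0.38). The difference did not pass the test (edgeR, adjusted p = 0.144, unadjusted p = 0.00561), nor did any of the other 4 genes tested, against 0.89% of 15275 genes called. Without 1w4Gy replicate 1 it was -0.57, and without 1w4Gy replicate 2 it was -1.28. C1s, C3 and Serping1 were lower in both 4m4Gy samples, where 47.8% of all genes did not overlap, 23.7% being lower and 24.1% higher. The log2 fold changes of C1r, C1s and Serping1 were -0.24, -0.20 and -0.17 (edgeR, adjusted p = 0.418, 0.419 and 0.419), and that of Cfi was 0.36 (adjusted p = 0.663).

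Liver-type transcripts were highest in the sample where C3 was highest. Alb, the albumin gene, read 25.4 and 9.03 CPM in 1w0Gy, 86.3 and 28.4 CPM in 1w4Gy, 7.36 and 39.0 CPM in 4m0Gy, and 18.0 and 32.7 CPM in 4m4Gy. The sample with the highest C3, 1w4Gy replicate 1, also had the highest level of each of the 5 hepatocyte markers, whose summed level was 119 CPM there and 10.2 to 52.1 CPM in the other samples. C5, C8a, C8b and C9, complement genes best known from the liver, were at 0.808, 0.870, 0.435 and 1.18 CPM in that sample, the highest level of each. These levels rest on only 13, 14, 7 and 19 counts. C4bpa was highest there as well, at 21 counts. Other complement genes peaked elsewhere. C4bpb was highest in 4m0Gy replicate 2, at 2.70 CPM against 1.80 CPM in 1w4Gy replicate 1. C8g was highest in 4m4Gy replicate 1, at 15.9 CPM against 10.5 CPM, and Mbl1 and Cfi in 4m4Gy replicate 2. At the low end the match was partial. C3, like 2 of the 5 markers, Alb and Ttr, was lowest in 4m0Gy replicate 1, while Serpina1 and Fgb, like C5, C8a, C8b and C9, were lowest in 1w0Gy replicate 2 and Apoa1 in 4m4Gy replicate 1. Among the members, the Pearson r of C3 was 0.84 with Serping1, 0.75 with C1r, 0.72 with C1s and -0.40 with Cfi. C3 was at most 13.2 CPM, and the part of liver-type RNA in its level was not tested.

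**Figure D3:**
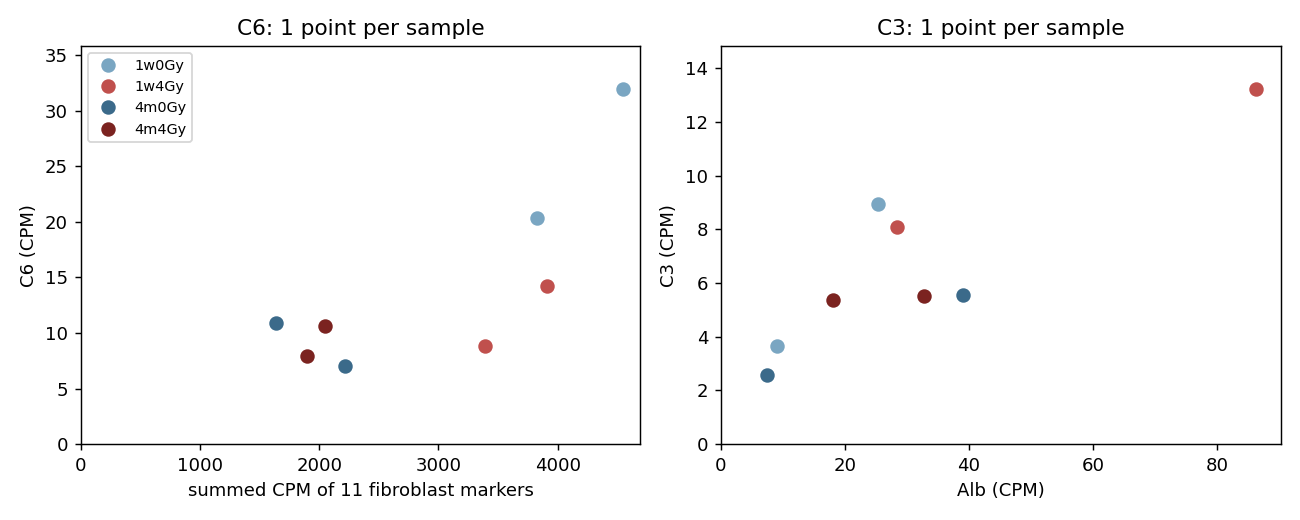
Left, C6 (CPM) against the summed CPM of 11 fibroblast markers. Right, C3 (CPM) against Alb (CPM). Each point is 1 of the 8 samples, coloured by group, and all axes start at 0. At 1 week C6 was lower in 1w4Gy with fibroblast sums of 3389 and 3911 CPM against 3825 and 4547 CPM in 1w0Gy, and the sample with the most Alb, at 86.3 CPM, had the most C3.

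The levels of other cell types were read from marker lists. The 11 thyrocyte markers summed to 189838 to 225497 CPM in all 8 samples. The 11 fibroblast markers summed to 3825 and 4547 CPM in 1w0Gy, 3389 and 3911 CPM in 1w4Gy, 1634 and 2216 CPM in 4m0Gy, and 1895 and 2048 CPM in 4m4Gy. The 7 adipocyte markers summed to 445 and 563 CPM in 1w0Gy and 299 and 314 CPM in 1w4Gy, and to 157 to 379 CPM in the 4-month samples. Both lists, like C6, were on average lower after irradiation at 1 week, and the adipocyte groups did not overlap. Parathyroid markers (4 of 4) summed to 7268 and 4767 CPM in 1w0Gy and 4350 and 3051 CPM in 1w4Gy, also lower with no overlap, to 5603 and 7504 CPM in 4m0Gy, and to 7715 and 641 CPM in 4m4Gy. Endothelial markers (6 of 7) were higher in 1w4Gy, at 1209 and 1122 CPM against 1021 and 1009 CPM in 1w0Gy, and summed to 883 to 1072 CPM at 4 months. C cell markers (4 of 4) summed to 1939 to 3351 CPM in the 1-week samples and 4281 to 7015 CPM in the 4-month samples, and macrophage markers (6 of 6) to 107 to 210 CPM over the 8 samples.

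Per 1000 CPM of fibroblast markers C6 was 7.03 and 5.31 CPM in 1w0Gy, 3.64 and 2.61 CPM in 1w4Gy, 6.68 and 3.17 CPM in 4m0Gy, and 4.17 and 5.18 CPM in 4m4Gy. Set against the fibroblast sum, the 1w4Gy samples were still below the 1w0Gy samples, while 1w0Gy overlapped the 4-month samples. The 3 collagens of the list, Col1a1, Col1a2 and Col3a1, differed more with age than the rest. Together they read 1762 and 2161 CPM in 1w0Gy and 343 and 490 CPM in 4m0Gy. The other 8 markers, the larger part of the sum in both groups, together read 2063 and 2386 CPM and 1291 and 1726 CPM. With the list split this way, after its values were seen, C6 per 1000 CPM of the other 8 markers was 13.4 and 9.85 CPM in 1w0Gy, 7.12 and 4.71 CPM in 1w4Gy, and 4.08 to 8.45 CPM at 4 months, and 1w0Gy stood above the rest. Per 100 CPM of adipocyte markers C6 was 5.68 and 4.57 in 1w0Gy and 4.75 and 2.81 in 1w4Gy, and these groups overlapped. The part of any of these cell types in the level of C6 was not tested. For C1r, C1s and Serping1 these ratios differed more with age when the collagens were in the sum. C1r per 1000 CPM of all 11 fibroblast markers was 21.8 to 24.3 in the 1-week samples and 35.3 to 38.0 in the 4-month samples. For C1s these ranges were 15.1 to 16.7 and 25.7 to 27.9, and for Serping1 25.6 to 29.9 and 44.1 to 50.8. Per 1000 CPM of the 8 markers other than collagens, C1r was 40.4 to 47.5 at 1 week and 45.0 to 48.5 at 4 months, which overlap. C1s was 28.0 to 32.1 and 32.8 to 35.8, and Serping1 47.5 to 55.2 and 56.7 to 64.7, both with no overlap.

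The wider complement system was followed in 50 genes listed by role, of which 45 were matched. C2, Mbl2, C7, Cd46 and C5ar1 were not analysed here. After irradiation at 4 months none of the 35 genes tested was called (edgeR, 2 had an unadjusted p under 0.05, against 8.39% of all genes, and DESeq2 and limma called none), and 22 were higher and 13 lower, with a median log2 fold change of 0.08 against 0.01 over all genes. After irradiation at 1 week none of 29 genes, members aside, was called (edgeR, 2 had an unadjusted p under 0.05, against 5.68% of all genes, and DESeq2 and limma called none), with a median of -0.04. Their values ran from -0.74 for Cfd, the protease factor D (adjusted p = 0.727), to 0.68 for C4bpa, a subunit of the C4b-binding protein. C6 itself stood at -1.18, the value that chose it. Over all genes limma called 0 in either comparison, so its lack of calls is not particular to the list. DESeq2 called 13 over all genes at 1 week and 6 at 4 months.

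**Figure D4:**
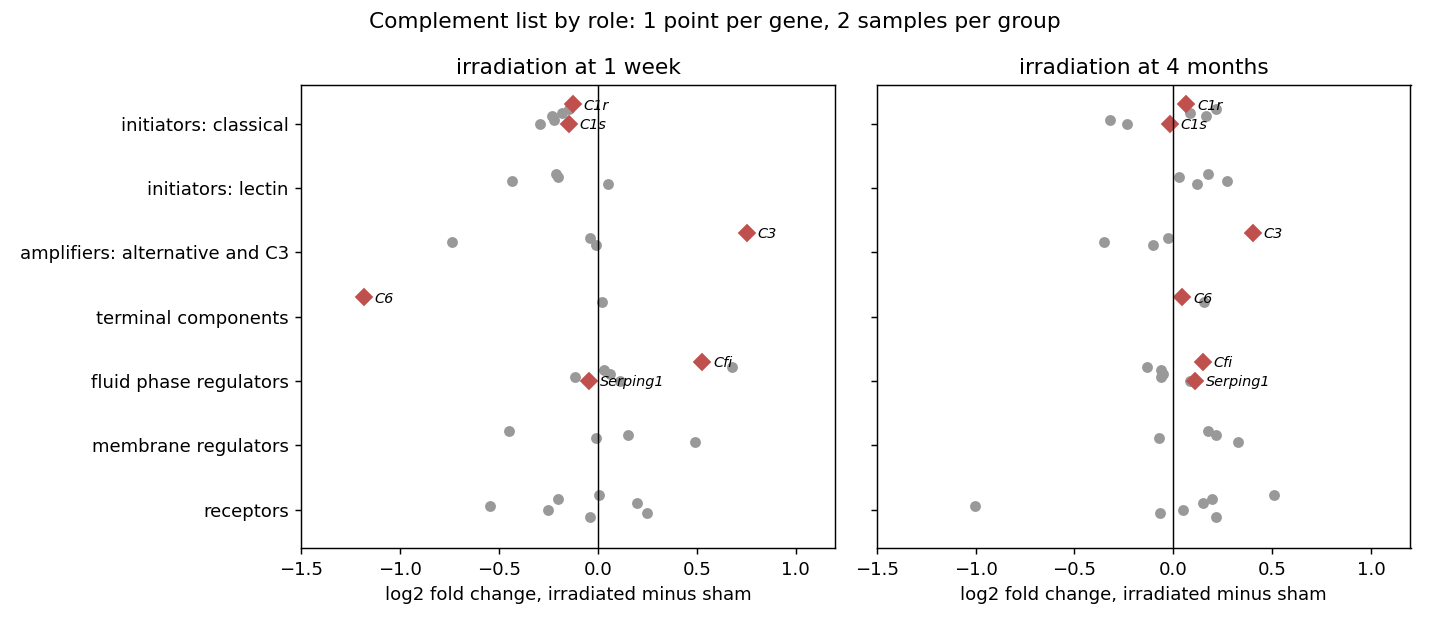
Log2 fold change of irradiated minus sham samples (horizontal axes) for the genes of the complement list by role, after irradiation at 1 week (left) and at 4 months (right). Each point is 1 gene from 2 samples per group, with the 6 genes described here as named diamonds. C6 lay at -1.18 on the left, where it chose the list, and at 0.05 on the right.

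Of the genes with the highest CPM in each role, members aside, none was called by the main edgeR fits of the 5 comparisons. A further fit of the sham groups, chosen after seeing the data, called Cd93 (log2 fold change -0.36, edgeR, adjusted p = 0.0497). Cd93 and Cd59 were called with single samples left out. C4b, the classical component that C1s cleaves, read 56.4 to 94.8 CPM over the 8 samples. C4a and C4b are near-identical copies and the split of reads between them is uncertain. Colec11, a soluble lectin that starts the lectin pathway, read 292 to 380 CPM, and Cfb, a protease of the alternative pathway, read 209 to 269 CPM. The files describe the Cfb gene as C2, its neighbour, so its identity is uncertain. C8g, the terminal component highest in level beside C6, read a mean of 12.1 CPM and at most 15.9 CPM, whereas C5, C8a, C8b and C9 stayed at or below 1.18 CPM. Clu, or clusterin, which binds terminal complexes in fluid, read 564 to 795 CPM. Cd59, which blocks the membrane attack complex on cells, read a mean of 326 CPM and at least 272 CPM. Cd93, a receptor of endothelial and myeloid cells, read 67.7 to 121 CPM.

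With age the list leaned lower. Between the sham groups 24 of 34 genes were lower at 4 months and 10 higher, with a median of -0.30 against 0.00 over all genes. None was called (edgeR, 10 had an unadjusted p under 0.05, against 17.8% of all genes). DESeq2 called 4 of the list, as it called 342 over all genes, and limma none, as it called 0 over all genes. Each of the 7 classical initiators was lower, from -0.78 for C1qc to -0.20 for C4a, and the macrophage markers were lower as well, at 107 to 160 CPM against 176 to 210 CPM, and their part was not tested. The smallest adjusted p was that of Cfd, which is made by fat cells (log2 fold change -0.87, edgeR, adjusted p = 0.0563), and Fcna, the lectin ficolin A, was next (-1.01, edgeR, adjusted p = 0.0576). These 2 genes were named after their values were seen. The adipocyte markers summed to 178 and 379 CPM in these 4-month samples against 445 and 563 CPM at 1 week, and their part in the value of Cfd was not tested. Between the irradiated groups 27 of 36 were lower and 9 higher, with a median of -0.20, and none was called (edgeR, 10 had an unadjusted p under 0.05, against 14.8% of all genes, and DESeq2 and limma called none). The 7 classical initiators were again lower, from -0.41 for C1qb to -0.19 for C4b. In the test of the difference between ages in the response to irradiation none of the 32 genes tested was called (edgeR, 1 had an unadjusted p under 0.05, against 9.12% of all genes, and DESeq2 and limma called none), as in 0% of 15684 genes over all.

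Among 14393 genes averaging 1 CPM or more, the 5 whose log2 CPM followed that of C6 most closely over the 8 samples were ENSRNOG00000066721, which the files leave without a symbol, at a Pearson r of 0.95, Apobec1, the editing enzyme of apolipoprotein B mRNA, at 0.94, and Hgs, Efhd1 and Rnf10 at 0.93, 0.93 and 0.92. Apobec1 read 4.91 and 3.47 CPM in 1w0Gy, 3.11 and 2.41 CPM in 1w4Gy, and at least 1.86 CPM at 4 months, where it was below every 1-week sample. The others varied less. Hgs read 70.1 to 80.7 CPM over the 8 samples, Rnf10 149 to 166 CPM and Efhd1 25.4 to 38.5 CPM. ENSRNOG00000066721 read 7.33 to 8.90 CPM, against 7.03 to 32.0 CPM for C6, so a high r did not mean a change of like size. C1r ranked 869 in this order, C1s 1351, Serping1 2050, C3 5163 and Cfi 12920, so no other member was among the genes most like C6.

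Facts of the whole series that bear on these values were few. Between 14835400 and 18138102 counts fell on genes in each sample. Samples of 1 group differed by more than sampling noise, the ratio of chi-square to its degrees of freedom being 8.44 to 17.3 in the 4 groups. Cdkn1a, a gene that radiation induces, read 14.3 to 17.4 CPM in the sham samples and 38.1 to 46.5 CPM in the irradiated samples, which accords with the labels.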

How the data were processed

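Thyroid RNA from 8 samples in 4 groups was sequenced with a directional kit. The authors mapped reads with HISAT2 2.2.1 and deposited raw featureCounts 2.0.0 counts and TPM per Ensembl transcript; the genome build and strand setting are not given in the sources used here. A read can count for several transcripts of a gene, so 1 transcript stood for each gene, that with the highest summed count (ties: the longest). Counts were tested with edgeR 4.0.16 in R 4.3.3 (filterByExpr, TMM, robust quasi-likelihood test, Benjamini-Hochberg over all genes tested, adjusted p under 0.05, and for irradiation a fold above 1.5 or under 0.5). DESeq2 1.42.0 and limma 3.58.1 on log2 of the deposited TPM plus 1 were alternatives. Scripts were tested on simulated data.

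The members and lists were chosen with earlier results of these data known. Genes named were all members, any list gene called in the edgeR fits with all samples, the highest of each role apart from members, the 5 most like C6, and exceptions marked as such. C7 was not analysed here.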

Additional observations from a re-analysis of the deposited data

How the results depend on the processing

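No member was called for irradiation at 4 months under any of 12 alternatives or with any sample left out. Of those alternatives, limma, counts summed over transcripts and the fit without the robust option called 0 genes over all there. C6 at 1 week kept its direction, from -1.20 to -0.98 on the log2 scale under 11 alternatives. These are refits of the comparison that chose C6 and give it no further support. At 4 months C6 read -0.0035 with limma on log2(TPM + 1) against 0.05. Leaving out 1 sample at a time turned directions there, and the log2 fold changes ran from -0.25 to 0.39 for C6, -0.14 to 0.30 for C1r, -0.24 to 0.24 for C1s, -0.040 to 1.06 for C3, -0.066 to 0.30 for Serping1 and -0.21 to 0.58 for Cfi. C3 between the sham groups ran from -1.29 to 0.17, the latter without 1w0Gy replicate 1. Of the complement list, DESeq2 called 4 genes between the sham groups (C1qc, C1qa, Fcna and Cfd, lower at 4 months) and the fit without a filter 2 (Fcna and Cfd), against 0, and samples left out gave 0 to 7, the latter without 4m0Gy replicate 2 (Vtn, C1qa, C1qb, C1qc, Colec12, Fcna and Cd93, all lower at 4 months). Between the irradiated groups, without 1w4Gy replicate 2, C3, Masp1 and Cd93 stood at -1.28, -0.87 and -0.55, against -0.97, -0.49 and -0.40. Without 1w4Gy replicate 1 Cd59 stood at 0.44 against 0.19. DESeq2 gave no adjusted p for 11 to 18 list genes per comparison.

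The replicate numbers were not shown to pair samples, since the samples came from different rats, no shared day is named, and the deviations of same-numbered samples correlated at -0.26 to 0.19. With the replicate block 1 member and 1 list gene, C3 in either count, was called between the irradiated groups (log2 fold change -0.93, edgeR, adjusted p = 0.0333). Over all genes that fit called 764, against 136 in the main fit. The block called none of the 6 members at 4 months and none of the 5 tested between the sham groups. The numbers crossed between the sham groups, chosen after seeing the data, called 1 member, C1r (log2 fold change -0.45, edgeR, adjusted p = 0.0392). The 5 list genes called there were C1r, C1qc, C1qa, Cd93 and Cfd, all lower at 4 months. Over all genes that fit called 340, against 163 in the main fit.

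Genes called over all genes were 1 at 1 week (0 to 13 under other settings), 3 at 4 months (0 to 14), 163 between sham groups (0 to 506), 136 between irradiated groups (14 to 764) and 0 for the interaction (0 to 25). These ranges do not cover the fits with 1 sample left out, which leave 1 sample in a group and whose counts varied more widely. Robust fitting in edgeR was kept as the main setting, and fitting without it was added after seeing the data.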
